A study of Mus musculus with 59 samples.

Results

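Lithium against vehicle in the prefrontal cortex of wild-type (WT) mice was compared over 20 of the 59 messenger RNA libraries of the series, chosen by their genotype and treatment labels. The 20 libraries were 10 from mice exposed to lithium, 5 of each sex, and 10 from mice exposed to vehicle, also 5 of each sex. All mice were C57BL/6J pups exposed for 3 weeks, from postnatal day 3 to day 24, through the milk of their mothers, and the cortex was taken on postnatal day 25. These 20 mice carried no deletion of Naa15, the auxiliary subunit of the N-terminal acetyltransferase NatA, while the other animals of the series were heterozygous for it (HT) or received fluoxetine. Libraries of 4 further sets were used beside them: 10 HT lithium, 9 HT vehicle, 10 WT fluoxetine, and 5 female and 5 male HT fluoxetine libraries. The labels give no dose, no litter and no level of lithium in the pups, so the p-values measure only the spread between these samples, and pups of 1 mother cannot be told from pups of several. The tissue is bulk cortex, where fewer cells of a type and less RNA per cell cannot be told apart.

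Lithium is a mood stabiliser. It competes with magnesium and so inhibits a small set of enzymes, among them the inositol monophosphatases, which return inositol phosphates to free inositol, and glycogen synthase kinase 3 (GSK3), which marks beta-catenin for degradation when Wnt signalling is low. In the frontal cortex, neuronal firing and growth factor signals switch on early response genes within minutes to hours, and lithium has long been studied for effects on that response, on the circadian clock, on endoplasmic reticulum chaperones and on neurotrophins.

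Values are normalised read counts, that is reads assigned to a gene divided by 1 factor per library. Of 18088 genes in the table, 17891 had a value of at least 10 in at least 4 libraries and were tested with limma on log2(value + 1) with sex as a covariate. A gene is said to have risen or fallen where its Benjamini-Hochberg adjusted p was under 0.05, each log2 fold change is lithium over vehicle on that scale, and ± after a log2 fold change is its standard error. The 20 libraries held 25.9 to 32.5 M recovered reads.

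The lithium libraries differed from the vehicle libraries in their overall composition, and this touches every result that follows. Genes of the mitochondrial chromosome took 8.79% ± 0.999 of the WT lithium libraries and 5.97% ± 0.537 of the WT vehicle libraries (SD, n = 10 each), with ranges of 7.37 to 10.3% and 5.26 to 6.98% that did not overlap. The difference of 2.82 percentage points had a two-sided permutation p of 2e-05, the smallest that 100000 resamples can give. The slope of each library on GC content, in log2 units per 10 percentage points of GC, was -0.157 ± 0.049 in lithium libraries and 0.090 ± 0.058 in vehicle libraries (SD, n = 10 each), a difference of -0.248 with the same p. A library with a negative slope has relatively more reads from GC-poor genes. The slopes ran from -0.240 to -0.057 under lithium and from -0.063 to 0.160 under vehicle, where the vehicle library of female replicate 1 was the lowest and the other 9 were all positive.

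The same composition was present in 25 libraries of the series, namely the 20 with lithium and the 5 from HT females given fluoxetine. Those 5 had mitochondrial shares of 6.91 to 9.03% and GC slopes of -0.236 to -0.058. The other 34 libraries, WT fluoxetine and HT fluoxetine males among them, had shares of 4.96 to 7.83% and slopes of -0.063 to 0.191. Of the 10 WT vehicle libraries, female replicate 1 alone had a negative slope, so lithium and whatever else the lithium libraries share cannot be told apart by these 20 libraries alone. Values from 2 fits are therefore given beside the main ones: fluoxetine against vehicle in HT females, a comparison added after the data were seen in which the composition moved the same way without lithium, and lithium against vehicle after the smooth dependence of each library on GC content and transcript length had been removed.

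**Figure D1:**
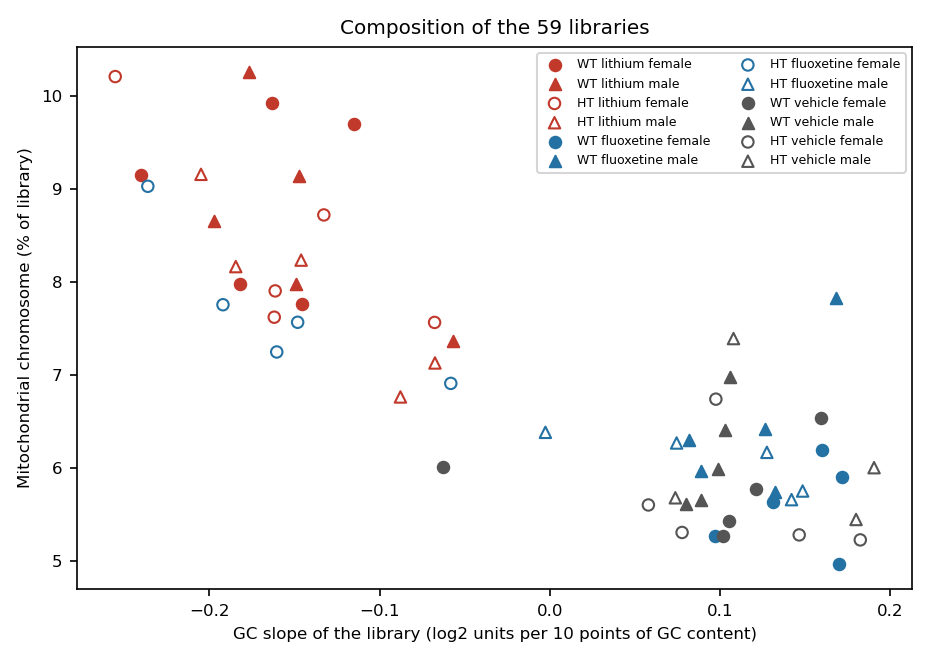
Share of reads from the mitochondrial chromosome (y axis, percent of the library) against the GC slope (x axis, log2 units per 10 percentage points of GC content), 1 point per library for all 59, coloured by treatment with marker shape and filling for sex and genotype. Lithium (20 libraries) and fluoxetine in HT females (5 libraries) lie at slopes of -0.057 or lower and shares of 6.76% or higher.

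Lithium libraries differed from vehicle libraries across much of the measured transcriptome: 8739 of 17891 genes (48.8%) passed the test, 4389 (24.5%) higher and 4350 (24.3%) lower, with a median absolute log2 fold change of 0.27 among them. Most changes were small. In 2163 genes (12.1%) the 10 lithium values did not overlap the 10 vehicle values, 1113 (6.22%) higher and 1050 (5.87%) lower. In a joint fit of both sexes, the contrast within females had 5946 genes (33.2%) pass, 2918 (16.3%) higher and 3028 (16.9%) lower. The contrast within males had 7022 (39.2%), 3412 (19.1%) higher and 3610 (20.2%) lower. The genes that rose were shorter and poorer in GC, with a median GC content of 44.9% and a median length of 2726 bases, against 54.4% and 4073 bases for those that fell and 49.4% and 3174.5 bases over all tested genes. The median log2 fold change was 0.22 in the decile of genes poorest in GC and -0.25 in the decile richest in GC.

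**Figure D2:**
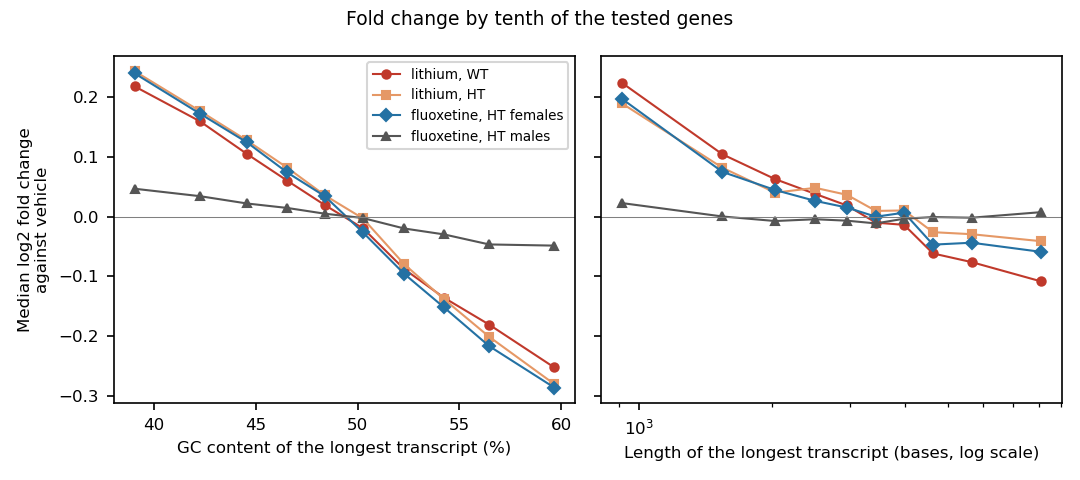
Median log2 fold change (y axis) of the genes in each decile of GC content and of transcript length (x axes), for lithium against vehicle in WT and HT mice and for fluoxetine against vehicle in HT females and HT males. In WT lithium the medians run from 0.22 in the lowest GC decile to -0.25 in the highest, and fluoxetine in HT females gives 0.24 and -0.29.

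Removal of the GC and length trend left 5178 of 17880 genes (29.0%) past the threshold, 2698 (15.1%) higher and 2480 (13.9%) lower. When the GC and length slopes of each library entered the limma fit as covariates, 0 genes passed and 1880 had an unadjusted p under 0.05. The length slopes of the lithium and vehicle libraries did not overlap, and their GC slopes overlapped very little. That fit could therefore hardly separate treatment from the slopes, and no conclusion is drawn from its count. With the mitochondrial share as a covariate 4570 passed. The share did not overlap between the groups either, so the same limit applies to this count.

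The WT result recurred in animals that shared no library with it, and the composition recurred there too. The mean GC slope was -0.147 in HT lithium and 0.124 in HT vehicle libraries, and the mean mitochondrial share 8.15% and 5.85%. Lithium and that composition cannot be told apart there either. In HT mice 8607 genes (48.1%) differed between lithium and vehicle, 4348 (24.3%) higher and 4259 (23.8%) lower. In both genotypes 7012 genes changed in the same direction, 80.2% of the WT genes and 81.5% of the HT genes, with 0 in opposite directions. Fluoxetine against vehicle in HT females changed 6615 genes (37.0%), 3136 (17.5%) higher and 3479 (19.4%) lower, of which 5587 had changed in the same direction under lithium in WT and 3 in the opposite direction. Those 5587 made up 63.9% of the WT lithium genes and 84.5% of the HT fluoxetine female genes. Fluoxetine against vehicle in HT males changed 0 genes (0.0%) by limma, 1472 having an unadjusted p under 0.05. DESeq2 on the recovered reads called 104 there and edgeR called 0. Shares over all tested genes apply to the list counts that follow. They were 24.5% higher and 24.3% lower in WT lithium, and 15.1% and 13.9% there with the trend removed. In HT fluoxetine females they were 17.5% and 19.4%.

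**Figure D3:**
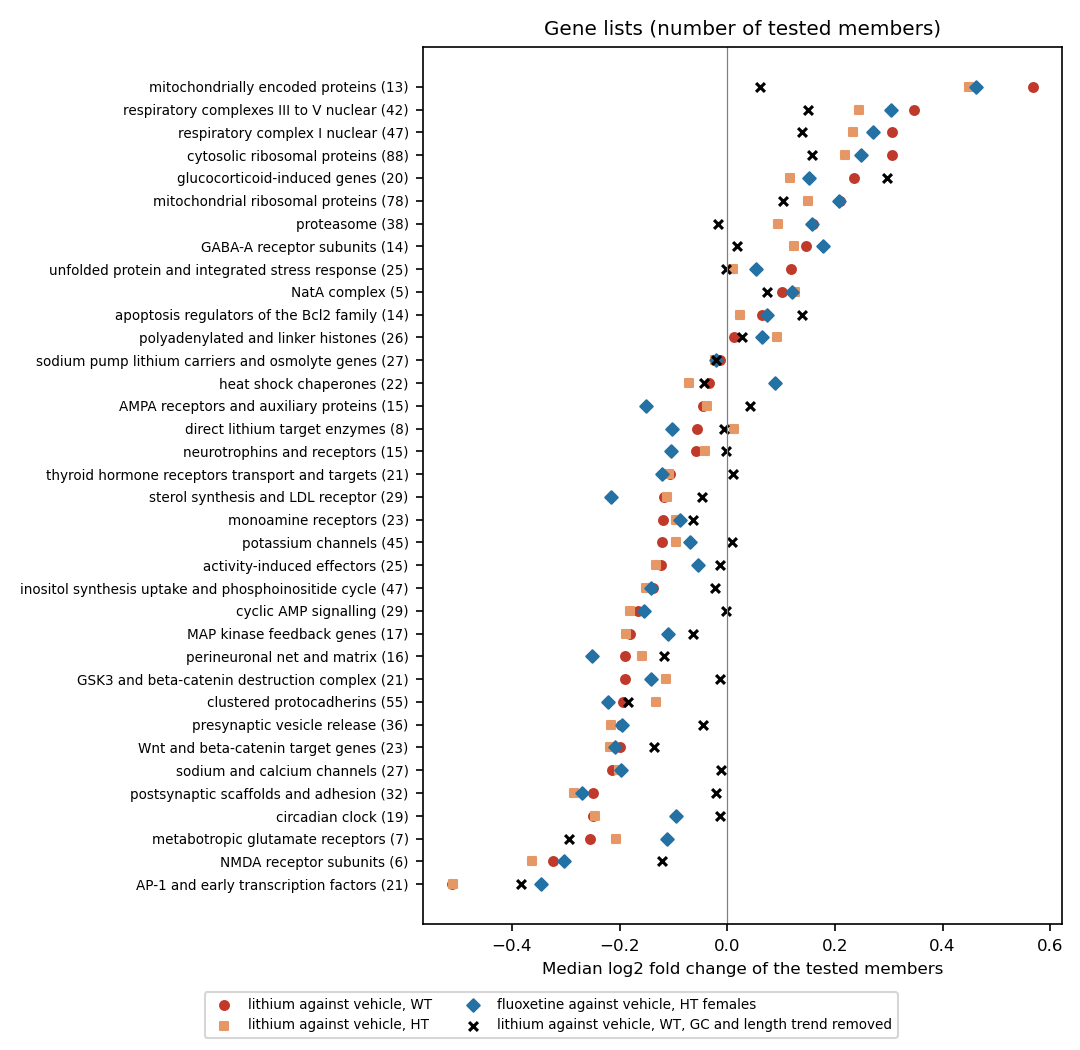
Median log2 fold change (x axis) of the members of each of 36 pathway lists (y axis), for lithium in WT, lithium in HT, fluoxetine in HT females, and lithium in WT without the GC and length trend. Early transcription factors lie lowest at -0.51 in WT lithium, and mitochondrially encoded proteins lie highest at 0.57.

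Among the enzymes that lithium inhibits directly, 8 of 11 listed were measured, of which 2 rose and 2 fell, a share near the 48.8% of all tested genes that passed. With the trend removed 1 rose and 2 fell (median -0.0052). Impa1 (0.23), the inositol monophosphatase that is a main lithium target in brain, had 1926 to 2169 (median 2035) in lithium libraries and 1625 to 1847 (median 1729) in vehicle libraries (adjusted p = 9.5e-07), so the groups did not overlap. It changed by 0.20 (adjusted p = 1.08e-05) in HT lithium and by 0.22 (adjusted p = 0.000607) in HT fluoxetine females, and by 0.16 (adjusted p = 0.00137) with the trend removed. Inpp1 (0.11), which removes a phosphate from inositol bisphosphates, also rose (adjusted p = 0.00384), with overlapping groups of 856 to 943 (median 901) in lithium libraries and 773 to 893 (median 828) in vehicle libraries.

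The genes of both GSK3 isoforms were slightly lower. Gsk3a had 5778 to 6396 (median 6071) in lithium libraries and 5704 to 7149.9 (median 6873) in vehicle libraries, a log2 fold change of -0.14 ± 0.034 (adjusted p = 0.00206) that was 0.067 (adjusted p = 0.122) with the trend removed. Gsk3b had 5736 to 7220.4 (median 6350.00) in lithium libraries and 6045 to 7597 (median 6906) in vehicle libraries, a log2 fold change of -0.12 ± 0.048 whose adjusted p of 0.0493 lay at the threshold and rose above it when any of 14 single libraries was left out. The groups overlapped for both. The other measured targets did not pass: Impa2, a second inositol monophosphatase (-0.057 ± 0.094, adjusted p = 0.647), Bpnt1, a nucleotidase (-0.054 ± 0.04, 0.283), and the phosphoglucomutases Pgm1 (-0.086 ± 0.036, 0.0524) and Pgm2 (-0.0018 ± 0.051, 0.98).

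Genes of inositol synthesis, uptake and the phosphoinositide cycle fell more often than they rose: 0 rose and 22 fell of 47 tested. The share that passed was near the 48.8% of all tested genes. Their median log2 fold change was -0.14 against 0.010 over all genes. The lowest p-values belonged to the inositol trisphosphate kinases. Itpkb (-0.46) had 537 to 705 (median 589.6) in lithium libraries and 740.2 to 978 (median 816) in vehicle libraries (adjusted p = 1.74e-07), and Itpkc (-0.46) had 142 to 188 (median 158) in lithium libraries and 191 to 254 (median 221) in vehicle libraries (adjusted p = 2.14e-06), with no overlap in either. In HT fluoxetine females 20 of the 47 fell and 2 rose, and with the trend removed 8 fell and 2 rose in WT lithium, with a median of -0.023.

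The beta-catenin destruction complex and its regulators were mostly lower, where 3 rose and 14 fell of 21 tested (median -0.19). Apc2 (-0.47), a neuronal scaffold of the complex, had 3621 to 4478 (median 4176) in lithium libraries and 5028 to 6203 (median 5772) in vehicle libraries (adjusted p = 4.48e-09), with no overlap, and Akt1 (-0.26), a kinase that phosphorylates GSK3, had 3408 to 3888 (median 3530.1) in lithium libraries and 3972 to 4436 (median 4252) in vehicle libraries (adjusted p = 8.32e-08). Once the trend was removed the log2 fold change was -0.01 (adjusted p = 0.811) for Apc2 and -0.026 (adjusted p = 0.441) for Akt1, and over the list 3 rose and 2 fell.

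No Wnt and beta-catenin target gene on the list rose: 0 rose and 10 fell of 23 tested (median -0.20). With the trend removed 0 rose and 4 fell. The share that passed was not above the 48.8% of all tested genes. The largest change was that of Lef1, a transcription factor that binds beta-catenin. Lef1 had 88.9 to 143 (median 115) in lithium libraries and 180.2 to 312 (median 221) in vehicle libraries, a log2 fold change of -0.98 ± 0.10 (adjusted p = 5.86e-08), and its groups did not overlap. It fell in HT lithium by 0.70 and in HT fluoxetine females by 0.62 on the log2 scale (adjusted p = 3.94e-05 and 0.0029), and its WT value was -1.04 (adjusted p = 1.4e-07) with the trend removed. Nkd1 (-0.57), an inhibitor of Dishevelled, and Axin2 (-0.31), a scaffold induced by Wnt signals, also fell without overlap (adjusted p = 8.85e-07 and 2.95e-06), and with the trend removed they were at -0.42 (adjusted p = 9.31e-05) and -0.11 (adjusted p = 0.0782). Lef1 is also made by endothelial cells of the brain, whose markers are described among the cell types.

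Activity-regulated genes were among the largest decreases. Arc, whose product acts at synapses in AMPA receptor removal (ENSMUSG00000022602, chr15:74669083-74672570, - strand), had 1054 to 2739.9 (median 1587) in lithium libraries and 4862 to 8633 (median 6331) in vehicle libraries. All 10 lithium libraries lay below all 10 vehicle libraries, a log2 fold change of -1.95 ± 0.15 (adjusted p = 2.19e-09). Egr2, a zinc finger transcription factor (ENSMUSG00000037868, chr10:67535475-67542188, + strand), had 61.5 to 173 (median 137) in lithium libraries and 357 to 527 (median 434) in vehicle libraries (-1.75 ± 0.15, adjusted p = 8.73e-09), also without overlap. Fos, a subunit of the AP-1 factor (ENSMUSG00000021250, chr12:85473890-85477273, + strand), had 291 to 654 (median 502) in lithium libraries and 793 to 1977 (median 1036) in vehicle libraries (-1.24 ± 0.16, adjusted p = 1.53e-06). Every lithium value of Fos lay below every vehicle value.

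Of 21 early transcription factors tested, 15 fell and 1 rose, with a median of -0.51. In 10 of them lithium lay lower without overlap, against 5.87% of all tested genes. Further members were Junb (-1.01), a partner of Fos in AP-1, Nr4a1 (-1.002) and Nr4a3 (-0.81), orphan nuclear receptors, Egr1 (-0.88), and Srf (-0.48), the factor that switches on many of the others (adjusted p = 7.55e-08, 2.49e-08, 9.22e-06, 2.87e-08 and 6.18e-08). Junb had 570.04 to 1228 (median 870.5) in lithium libraries and 1394 to 2330.3 (median 1712) in vehicle libraries, and Nr4a1 had 1382 to 2175 (median 1530.2) in lithium libraries and 2496 to 4604 (median 3261) in vehicle libraries, with no overlap in either gene. Klf10, an early gene induced by transforming growth factor beta and one of the 12 largest decreases, had 522 to 757 (median 659) in lithium libraries and 972 to 1616 (median 1399) in vehicle libraries (-1.09 ± 0.078, adjusted p = 1.23e-09).

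The 250 bases before the RefSeq transcription start of Fos, Nr4a1, Junb and Egr2 are shown. They were searched for cyclic AMP response elements, the classical binding sites of CREB, a factor that switches on these genes in neurons. The Egr2 window runs past the start of the Egr2 gene given above, so its last bases lie inside that annotation. Capitals mark the core of the element, TGACG or its reverse complement CGTCA, searched on both strands; the core is contained in the full element TGACGTCA. The sequences are from RefSeq on build GRCm38.p6, written 5′ to 3′ on the strand of the gene: Fos chr12:85473640-85473889 (+), Nr4a1 chr15:101266596-101266845 (+), Junb chr8:84978749-84978998 (-) and Egr2 chr10:67535249-67535498 (+).
Fos: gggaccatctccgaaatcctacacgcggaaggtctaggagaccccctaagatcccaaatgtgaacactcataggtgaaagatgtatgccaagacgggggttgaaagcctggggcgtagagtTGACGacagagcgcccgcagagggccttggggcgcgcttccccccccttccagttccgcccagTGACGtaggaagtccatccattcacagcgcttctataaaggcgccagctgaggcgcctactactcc
Nr4a1: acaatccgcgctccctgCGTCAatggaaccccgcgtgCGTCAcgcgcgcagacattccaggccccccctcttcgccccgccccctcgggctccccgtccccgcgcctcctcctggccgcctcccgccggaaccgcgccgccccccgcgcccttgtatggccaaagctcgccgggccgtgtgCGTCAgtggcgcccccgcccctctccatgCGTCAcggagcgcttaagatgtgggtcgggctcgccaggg
Junb: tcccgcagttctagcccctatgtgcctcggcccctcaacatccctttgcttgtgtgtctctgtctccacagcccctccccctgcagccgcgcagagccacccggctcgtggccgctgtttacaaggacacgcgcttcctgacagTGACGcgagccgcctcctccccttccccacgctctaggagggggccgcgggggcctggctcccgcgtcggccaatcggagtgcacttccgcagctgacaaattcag
Egr2: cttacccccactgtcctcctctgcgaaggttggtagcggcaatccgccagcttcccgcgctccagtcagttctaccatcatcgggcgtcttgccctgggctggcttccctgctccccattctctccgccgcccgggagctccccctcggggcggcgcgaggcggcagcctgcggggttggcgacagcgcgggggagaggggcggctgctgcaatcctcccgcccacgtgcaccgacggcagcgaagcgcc
Fos held 2 cores, Nr4a1 held 4, Junb held 1 and Egr2 held 0, and none of these windows held the full element. The core was in 12 of the 18 early transcription factors with a promoter in the table (66.7%), in 10 of 16 activity-induced effectors (62.5%), and in 25.4% of the tested genes with a promoter; the full element was in 1 of the 18 (5.56%), in 3 of the 16 effectors (18.75%) and in 2.58% of the tested genes. Over all called genes the core was in 30.4% of those that rose and 25.8% of those that fell, and the full element in 3.02% and 2.66%. A match is a description of these letters only. Arc and Sik1 had no promoter sequence in the source used here, so they were not searched.

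Among the effectors that neuronal activity induces, 8 rose and 9 fell of 25 tested (median -0.12), so the list as a whole had no single direction. After trend removal 3 rose and 3 fell (median -0.014). Sik1, a salt-inducible kinase that restrains CREB coactivators, fell beside Arc: it had 247 to 372 (median 281) in lithium libraries and 504 to 940.2 (median 641) in vehicle libraries (-1.21 ± 0.09, adjusted p = 2.05e-09), with no overlap. Per1, an early gene and clock component, had 1903 to 2891 (median 2139.9) in lithium libraries and 2928 to 4045 (median 3689) in vehicle libraries (-0.70 ± 0.062, adjusted p = 1.42e-08). Rheb, a GTPase that activates mTOR, moved the other way, with 2791 to 3304 (median 2867) in lithium libraries and 2249.99 to 2470.3 (median 2382) in vehicle libraries (0.30 ± 0.029, adjusted p = 4.68e-08).

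**Figure D4:**
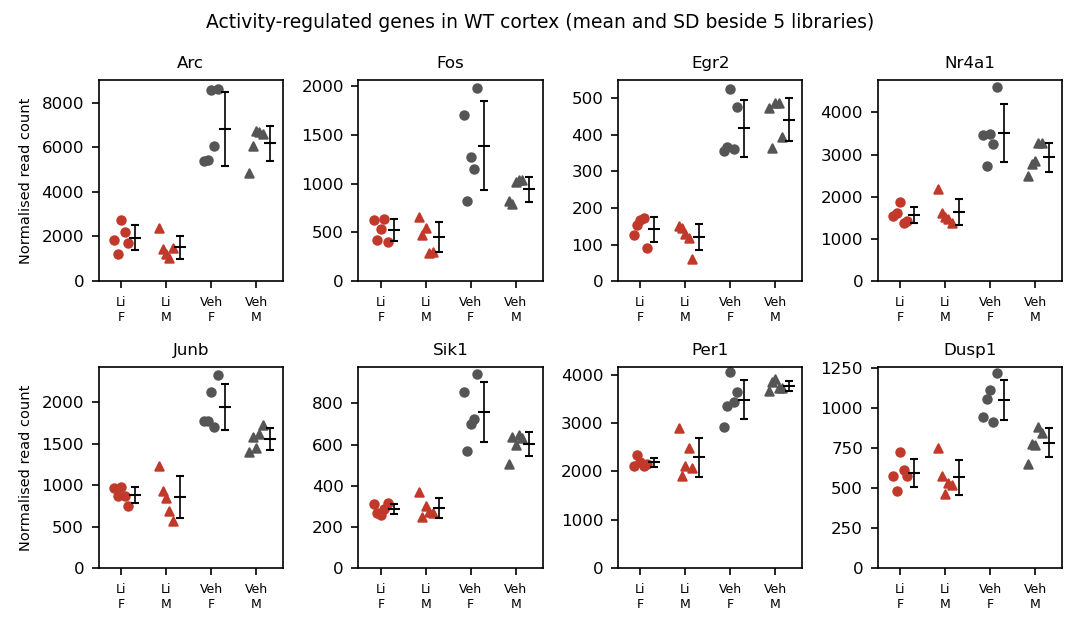
Normalised read counts (y axes) of Arc, Fos, Egr2, Nr4a1, Junb, Sik1, Per1 and Dusp1, 1 point per library for lithium and vehicle in WT females and males, with the mean and SD of each group of 5. Lithium lies below vehicle without overlap for each gene but Dusp1, and Arc reaches 2739.9 at most under lithium against 4862 at least under vehicle.

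Feedback genes of the MAP kinase pathway fell more often than they rose (2 rose and 9 fell of 17 tested, median -0.18), but after trend removal 5 rose and 5 fell (median -0.064), an even split. Dusp1, an early phosphatase of MAP kinases, had 465 to 752 (median 576) in lithium libraries and 649.6 to 1218 (median 900.4) in vehicle libraries (-0.65 ± 0.091, adjusted p = 4.66e-06), with overlapping groups, and Spry4, an inhibitor of receptor tyrosine kinase signals, had 255 to 361 (median 306) in lithium libraries and 379 to 548 (median 490.1) in vehicle libraries (-0.66 ± 0.069, adjusted p = 1.04e-07), without overlap. Dusp8 (-0.24) fell as well (adjusted p = 7.22e-08), but was at 0.093 (adjusted p = 0.00734) with the trend removed. Dusp2, another of these phosphatases, rose, at low counts. It had 23.2 to 36.5 (median 30.8) in lithium libraries and 13.8 to 23.99 (median 17.97) in vehicle libraries (0.70 ± 0.12, adjusted p = 6.08e-05).

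The falls of Arc, Egr2, Fos and Klf10 were still called once the GC and length trend had been removed. The log2 fold change was then -1.71 (adjusted p = 9.87e-08) for Arc, -1.70 (adjusted p = 1.08e-07) for Egr2, -1.25 (adjusted p = 1e-05) for Fos and -1.16 (adjusted p = 1.02e-08) for Klf10, and over the list of early transcription factors 14 fell and 1 rose with a median of -0.38. In HT lithium 16 of the 21 fell and 0 rose. In HT fluoxetine females, whose libraries had the same composition, 6 fell and 0 rose, with a median of -0.35.

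There, Arc changed by -0.47 (adjusted p = 0.426), Fos by -0.39 (adjusted p = 0.401), Egr2 by -0.51 (adjusted p = 0.51) and Junb by -0.31 (adjusted p = 0.515). The difference between the lithium effect in WT females and the fluoxetine effect in HT females was -1.36 ± 0.52 for Arc (unadjusted p = 0.0164, adjusted p = 0.886 over all genes), so it did not pass. In WT fluoxetine libraries, which lacked the composition, the level of Arc was 2196 to 6924 (median 2693), that of Egr2 117 to 355 (median 208) and that of Fos 328 to 848 (median 699.9). These medians lay between those of the lithium and the vehicle libraries. Lithium against fluoxetine in WT gave -0.82 (adjusted p = 0.000364) for Arc, -0.73 (adjusted p = 0.00357) for Egr2, -0.36 (adjusted p = 0.0589) for Fos and -0.20 (adjusted p = 0.12) for Nr4a1, in a comparison where 9283 genes (51.9%) passed.

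Of circadian clock genes 2 rose and 11 fell of 19 tested (median -0.25). After trend removal 2 rose and 9 fell (median -0.014), and in HT fluoxetine females 2 rose and 5 fell (median -0.10). Nr1d1, a nuclear receptor that represses Arntl, had 1835 to 2352 (median 2088) in lithium libraries and 2803 to 3584 (median 3417) in vehicle libraries (-0.68 ± 0.043, adjusted p = 3.24e-10), without overlap. It changed by -0.65 (adjusted p = 5.96e-08) in HT lithium, by -0.47 (adjusted p = 0.00112) in HT fluoxetine females and by -0.50 (adjusted p = 2.05e-08) with the trend removed. The time of day at which the cortex was taken is not given in the labels used here.

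Genes induced by glucocorticoids rose more often than they fell: 12 rose and 2 fell of 20 tested, with a median of 0.23. No overlap was present in 4 of the rises and 1 of the falls. Of all tested genes, 6.22% lay higher and 5.87% lower without overlap. Hif3a, a hypoxia factor family member that is induced by glucocorticoids, had 344 to 564 (median 415) in lithium libraries and 163 to 232 (median 197) in vehicle libraries. Its log2 fold change was 1.11 ± 0.09 (adjusted p = 4.98e-09), and every lithium library lay above every vehicle library. Fkbp5, a cochaperone that lowers the affinity of the glucocorticoid receptor (ENSMUSG00000024222, chr17:28399094-28517527, - strand), had 1013 to 1584 (median 1292) in lithium libraries and 745 to 872 (median 771) in vehicle libraries (0.71 ± 0.071, adjusted p = 6.19e-08), with no overlap. Sult1a1, a sulfotransferase, had 299 to 576 (median 378) in lithium libraries and 146 to 256 (median 173) in vehicle libraries (1.06 ± 0.13, adjusted p = 1.15e-06), and Klf9 (0.25) rose with overlapping groups (adjusted p = 2.69e-05). The 2 listed members that fell were Per1 and Dusp1, which are early genes as well.

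With the trend removed 11 of the 20 rose and 3 fell, with values of 1.31 (adjusted p = 4.8e-09) for Hif3a and 0.81 (adjusted p = 7.25e-08) for Fkbp5. In HT lithium 7 rose and 2 fell, and in HT fluoxetine females 5 rose and 0 fell. WT fluoxetine libraries had levels of 256 to 515 (median 437) for Hif3a and 861 to 1739 (median 1124) for Fkbp5. These levels overlapped those of the lithium libraries, and lithium against fluoxetine gave 0.10 ± 0.12 for Hif3a and 0.11 ± 0.11 for Fkbp5 (adjusted p = 0.542 and 0.426). In HT fluoxetine males against HT vehicle males the log2 fold changes were 1.13 and 0.69 (adjusted p = 0.14 and 0.14).

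**Figure D5:**
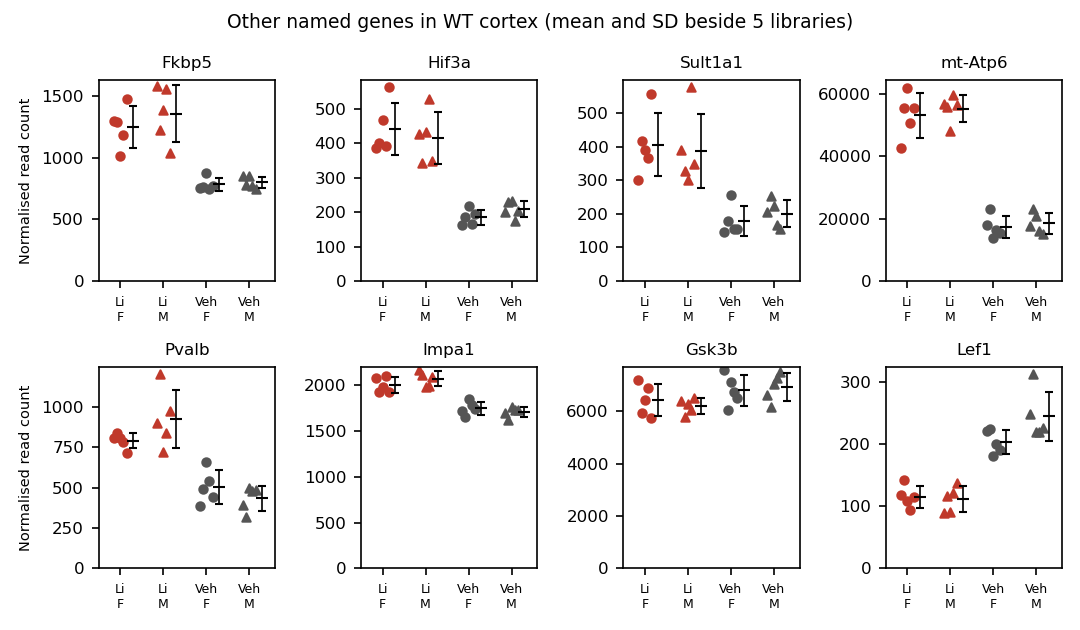
Normalised read counts (y axes) of Fkbp5, Hif3a, Sult1a1, mt-Atp6, Pvalb, Impa1, Gsk3b and Lef1, 1 point per library for lithium and vehicle in WT females and males, with the mean and SD of each group of 5. Lithium lies above vehicle without overlap for Fkbp5, Hif3a, Sult1a1, mt-Atp6, Pvalb and Impa1, below it without overlap for Lef1, and overlaps it for Gsk3b.

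Chaperones and stress genes moved in both directions. Of the unfolded protein and integrated stress response, 9 rose and 6 fell of 25 tested (median 0.12): the chaperone cofactor Dnajc3 (0.29) rose, with 1819 to 2161 (median 1949) in lithium libraries and 1434 to 1824 (median 1594) in vehicle libraries, and the endoplasmic reticulum chaperone Hyou1 (-0.36) fell, with 2367 to 2860.2 (median 2552) in lithium libraries and 2929 to 3532 (median 3326) in vehicle libraries (adjusted p = 1.73e-06 and 9.08e-08). Of the heat shock chaperones, 6 rose and 9 fell of 22 tested (median -0.034). Hspe1 (0.32), the mitochondrial cochaperone, rose and Bag3 (-0.69), a cochaperone of selective autophagy, fell, both without overlap (adjusted p = 2.66e-07 and 5.2e-07). With the trend removed Bag3 was at -0.55 (adjusted p = 4.23e-05) and Hspe1 at 0.00031 (adjusted p = 0.994), 5 rose and 4 fell on the unfolded protein list, and 2 rose and 5 fell among the heat shock chaperones.

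In sterol synthesis, 6 rose and 13 fell of 29 tested (median -0.12). Both controllers of the pathway fell without overlap: Srebf2 (-0.36), its transcription factor, had 5185 to 6049.9 (median 5768) in lithium libraries and 6659 to 7750.4 (median 7419) in vehicle libraries (adjusted p = 1.48e-08), and Scap (-0.38), the escort of that factor, had 2029 to 2293 (median 2152) in lithium libraries and 2468 to 2965 (median 2858) in vehicle libraries (adjusted p = 4.37e-09). Without the trend these were at -0.037 (adjusted p = 0.388) and -0.069 (adjusted p = 0.0496), while 4 genes of the list rose and 12 fell.

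Lithium enters cells largely by routes that also carry sodium. On the list of sodium pumps, lithium carriers and osmolyte genes, 3 rose and 10 fell of 27 tested (median -0.013). The share that passed was near the 48.8% of all tested genes. Without the trend 3 rose and 4 fell. Atp1b2 (-0.37), an astrocytic subunit of the sodium pump, fell without overlap. It had 8466 to 10150.4 (median 9400.3) in lithium libraries and 11265 to 13554 (median 12049.9) in vehicle libraries (adjusted p = 7.76e-08; -0.25 with the trend removed, adjusted p = 5.54e-06). In HT fluoxetine females it changed by -0.45 (adjusted p = 9.31e-05).

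Of genes of thyroid hormone transport, receptors and targets, 5 rose and 10 fell of 21 tested (median -0.11), among the falls Hr (-0.46), a corepressor induced by thyroid hormone (adjusted p = 2.94e-06). After trend removal 5 rose and 0 fell. Of cyclic AMP signalling, 3 rose and 16 fell of 29 tested (median -0.17), while after trend removal 2 rose and 5 fell (median -0.0019). Gnai2 (-0.43), an inhibitory G protein subunit, had 3238 to 3599 (median 3281) in lithium libraries and 4273 to 4914 (median 4404) in vehicle libraries (adjusted p = 1.66e-09), without overlap, and Gnao1 (-0.22), the abundant G protein of neurons, fell (adjusted p = 2.79e-07) but was at 0.075 (adjusted p = 0.0627) with the trend removed. Adcy5 (-0.32), an adenylyl cyclase abundant in striatum, fell with overlapping groups (adjusted p = 0.0073; 0.082 with the trend removed, adjusted p = 0.506).

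Of the Bcl2 family, 6 rose and 1 fell of 14 tested (median 0.064, and 5 rose and 1 fell without the trend). The share that passed was near the 48.8% of all tested genes. The 1 fall was that of Bbc3, a cell death gene known as Puma, with 99.96 to 174 (median 116) in lithium libraries and 133 to 249 (median 211) in vehicle libraries (-0.75 ± 0.11, adjusted p = 7.34e-06), and Pmaip1 (0.45), known as Noxa, rose (adjusted p = 0.000377). Of neurotrophins and their receptors, 1 rose and 4 fell of 15 tested (median -0.058), the falls including Gfra2 (-0.29), a receptor of neurturin, and Sort1 (-0.18), a sorting receptor that binds proneurotrophins (adjusted p = 0.000648 and 0.000685). Corrected for the trend 1 of that list rose and 0 fell.

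Lists of energy metabolism and protein synthesis held more rises than falls. Of the 13 proteins encoded by the mitochondrial chromosome, 10 rose and 0 fell (median 0.57). mt-Atp6, a subunit of ATP synthase, had 42531 to 61975 (median 55531) in lithium libraries and 13755 to 22979 (median 17041) in vehicle libraries (1.61 ± 0.089, adjusted p = 4.89e-11), with no overlap. mt-Co2, a subunit of cytochrome oxidase, had 105487 to 151828 (median 115840.00) in lithium libraries and 35659 to 66342 (median 52362) in vehicle libraries (1.28 ± 0.11, adjusted p = 1.35e-08), and mt-Nd1, a subunit of complex I, 186966 to 275496 (median 231302) in lithium libraries and 132156 to 179277 (median 152510.00) in vehicle libraries (0.59 ± 0.073, adjusted p = 1.01e-06). mt-Nd3 (1.15), another complex I subunit, rose with overlapping groups (adjusted p = 6.57e-06). The same list had 10 rises in HT lithium and 8 in HT fluoxetine females, where mt-Atp6 was at 1.45 (adjusted p = 1.74e-05). Once the trend was removed 2 rose, mt-Atp6 at 1.03 (adjusted p = 8.89e-08) and mt-Co2 at 0.74 (adjusted p = 3.3e-05).

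Nuclear genes of complex I (36 rose and 4 fell of 47 tested, median 0.31) and of complexes III to V (33 rose and 2 fell of 42 tested, median 0.35) followed the same direction. Ndufa4, a respiratory chain subunit, had 5142 to 6096 (median 5512) in lithium libraries and 3316 to 4185 (median 3825) in vehicle libraries (0.54 ± 0.038, adjusted p = 1.03e-09), and Atp5mpl, a small subunit of ATP synthase, had 1527 to 1791 (median 1589) in lithium libraries and 965 to 1113 (median 1045) in vehicle libraries (0.62 ± 0.032, adjusted p = 4.89e-11). Lithium lay higher without overlap in 24 genes of complex I and 21 of complexes III to V, and in 6.22% of all tested genes. Ndufc2 (0.45) of complex I and Uqcrh (0.48) of complex III rose without overlap too (adjusted p = 1.45e-09 and 1.49e-09). With the trend removed 25 genes of complex I rose and 6 fell, and 20 of complexes III to V rose and 2 fell.

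Cytosolic ribosomal protein genes (67 rose and 5 fell of 88 tested, median 0.31), mitochondrial ribosomal protein genes (57 rose and 2 fell of 78 tested, median 0.21) and proteasome genes (23 rose and 4 fell of 38 tested, median 0.16) also rose more often than they fell. Rpl22l1, a paralog of Rpl22, had 694 to 903 (median 728) in lithium libraries and 409 to 509 (median 430.4) in vehicle libraries (0.77 ± 0.048, adjusted p = 2.79e-10), with no overlap. Rpl22 (0.31), Mrps18c (0.50), Mrpl13 (0.37), Psmb1 (0.35) and Psma1 (0.30) rose without overlap (adjusted p = 5.01e-09, 1.42e-08, 1.56e-08, 1.07e-08 and 2.58e-08). Ribosomal protein genes have many processed copies in the genome, and how reads were split between copies is not given in the sources used here.

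In HT fluoxetine females 58 cytosolic ribosomal genes rose and 7 fell, 51 mitochondrial ribosomal genes rose and 7 fell, and 20 proteasome genes rose and 5 fell. Without the trend in WT lithium, 47 cytosolic and 35 mitochondrial ribosomal genes rose and 9 and 1 fell, while 8 proteasome genes rose and 6 fell. Of the histone genes, 6 rose and 3 fell of 26 tested (median 0.013), and after trend removal 2 rose and 5 fell (median 0.028), so the balance of calls turned. The replacement histones H3f3a (0.36) and H2afz (0.34) were higher without overlap (adjusted p = 6.89e-08 and 1.54e-06).

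NMDA receptor subunits fell in 5 of 6 tested and rose in 0 (median -0.32), and after trend removal 0 rose and 2 fell (median -0.12). Grin1 (-0.38), the obligatory subunit, had 13001 to 15219 (median 13848) in lithium libraries and 15556 to 19583 (median 18015) in vehicle libraries (adjusted p = 4.11e-08), and Grin2d (-0.71), found mainly in interneurons, had 291 to 367 (median 352) in lithium libraries and 488 to 695 (median 541) in vehicle libraries (adjusted p = 1.03e-09), with no overlap in either. In that fit Grin2d was at -0.26 (adjusted p = 0.0019) and Grin1 at -0.055 (adjusted p = 0.235). Metabotropic glutamate receptors fell in 4 of 7 and rose in 0 (median -0.26), and 4 fell with the trend removed. Grm2 (-0.75), a presynaptic autoreceptor, had 1349 to 2157 (median 1723) in lithium libraries and 2335 to 3325 (median 3071) in vehicle libraries (adjusted p = 8.81e-08), and Grm4 (-0.67) fell with overlap (adjusted p = 9.57e-05).

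AMPA receptors and their auxiliary proteins moved both ways (3 rose and 4 fell of 15 tested, median -0.046), a share near the 48.8% of all tested genes, and 4 rose and 3 fell without the trend. Among the falls were Cacng8 (-0.40) and Shisa7 (-0.35), both auxiliary proteins, without overlap (adjusted p = 7.6e-08 and 2.19e-06). The GABA-A receptor list was the one receptor list with rises only: 6 rose and 0 fell of 14 tested (median 0.15). Gabra4 (0.34), an extrasynaptic alpha subunit, had 3779.7 to 5219.7 (median 4239.9) in lithium libraries and 2919.6 to 4065 (median 3412) in vehicle libraries (adjusted p = 7.28e-05), and the groups overlapped. In HT fluoxetine females 7 rose, and with the trend removed in WT lithium 1 rose. Of the monoamine receptors, 1 rose and 5 fell of 23 tested (median -0.12), and 0 rose and 1 fell without the trend. Among the falls were the serotonin receptor Htr6 (-0.42) and the adrenergic receptor Adrb1 (-0.30) (adjusted p = 0.000356 and 3.81e-05).

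Postsynaptic scaffold and adhesion genes (1 rose and 20 fell of 32 tested, median -0.25) and genes of presynaptic release (4 rose and 22 fell of 36 tested, median -0.20) fell more often than they rose. Nrxn2, a neurexin, had 11158 to 12795 (median 11902) in lithium libraries and 15362 to 16985 (median 16525) in vehicle libraries (-0.48 ± 0.028, adjusted p = 1.49e-10), with no overlap, and Nlgn3 (-0.29), a neuroligin, fell likewise (adjusted p = 3.12e-09). Syn1 (-0.34), which tethers vesicles, fell without overlap (adjusted p = 9.3e-09). Nrxn2 was at -0.032 (adjusted p = 0.466) with the trend removed, and by then 2 postsynaptic genes rose and 5 fell (median -0.021), and 0 presynaptic genes rose and 9 fell (median -0.045).

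Ion channel genes also fell more often than they rose, with 6 rises and 20 falls among 45 potassium channels (median -0.12) and 3 rises and 17 falls among 27 sodium, calcium and HCN channels (median -0.21). Kcnh2, the ERG potassium channel, had 677 to 765 (median 704) in lithium libraries and 947 to 1309 (median 1076) in vehicle libraries (-0.60 ± 0.043, adjusted p = 1.25e-09), with no overlap, and was at -0.25 (adjusted p = 0.000365) with the trend removed. Kcng1 (-0.51), a silent modifier subunit, and Cacna1i (-0.44), a T-type calcium channel, fell without overlap, and the pacemaker channel Hcn2 (-0.37) fell with overlap (adjusted p = 5.15e-07, 8.73e-09 and 1.04e-07). Cacna1i and Hcn2 were at -0.011 (adjusted p = 0.834) and -0.023 (adjusted p = 0.618) with the trend removed. Over the lists, 11 potassium channels then rose and 6 fell, and 4 sodium, calcium and HCN channels rose and 3 fell.

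Clustered protocadherins, adhesion proteins that give single neurons their identity, fell in 26 of 55 tested and rose in 0 (median -0.19). That share was near the 48.8% of all tested genes that passed. Without the trend 24 fell and 0 rose, where 29.0% of all genes passed. Pcdhgb2 (-0.58) had 219 to 286 (median 250.1) in lithium libraries and 314 to 449.6 (median 372) in vehicle libraries and Pcdhgc5 (-0.44) had 5009 to 6411 (median 5659.6) in lithium libraries and 6601 to 8370.2 (median 7696) in vehicle libraries (adjusted p = 1.15e-07 and 8.77e-08), both without overlap. The members of a cluster share their last exons, so how reads were split between them is uncertain. In HT fluoxetine females 23 fell and 0 rose.

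Of the matrix genes of perineuronal nets, 0 rose and 8 fell of 16 tested (median -0.19), a share near the 48.8% of all tested genes. Without the trend 1 rose and 5 fell. Ncan, a chondroitin sulfate proteoglycan, had 8041 to 8728 (median 8231) in lithium libraries and 10977 to 12189.5 (median 11767) in vehicle libraries (-0.49 ± 0.026, adjusted p = 4.89e-11), and Bcan (-0.41), a related proteoglycan, fell as well (adjusted p = 6.1e-08), both without overlap. Tnc (-1.08), a matrix glycoprotein of immature tissue, fell with overlap (adjusted p = 7.56e-06; -0.85 with the trend removed, adjusted p = 0.000462).

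Vascular markers fell more often than they rose, and Hspg2 and Nes, described below, were among the 12 largest decreases. Pericyte and smooth muscle markers fell in 7 of 11 and rose in 0 (median -0.51), with 7 falls and 0 rises once the trend was removed. Notch3, the receptor that keeps mural cells in their state, had 373 to 572 (median 461) in lithium libraries and 596 to 850.1 (median 802) in vehicle libraries (-0.77 ± 0.072, adjusted p = 2.76e-08), with no overlap. Pdgfrb (-0.55), the platelet-derived growth factor receptor of pericytes, fell with overlap (adjusted p = 3.41e-07). The summed level of the 11 mural markers was 6114 to 10903 in lithium libraries and 6314 to 11805 in vehicle libraries, and these ranges overlapped. In HT lithium 9 fell, and in HT fluoxetine females 6 fell.

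Endothelial markers fell in 8 of 14 and rose in 2 (median -0.34), and without the trend 1 rose and 8 fell. Their summed level was 9932 to 13664 in lithium libraries and 10867 to 15089.6 in vehicle libraries. Kdr, the main receptor of vascular endothelial growth factor, had 452 to 689 (median 564) in lithium libraries and 689 to 1192 (median 939) in vehicle libraries (-0.70 ± 0.087, adjusted p = 9.55e-07), and Ly6c1, a surface antigen of brain endothelium, moved the other way with 885 to 1261 (median 1027) in lithium libraries and 612 to 844 (median 721) in vehicle libraries (0.53 ± 0.066, adjusted p = 9.7e-07), neither with overlap. Hspg2, the basement membrane proteoglycan perlecan, had 312 to 612 (median 471) in lithium libraries and 618 to 1068 (median 871) in vehicle libraries (-0.86 ± 0.10, adjusted p = 6.06e-07), and Nes, an intermediate filament of progenitors and blood vessels, had 222 to 442 (median 338) in lithium libraries and 471 to 708 (median 627) in vehicle libraries (-0.86 ± 0.11, adjusted p = 1.84e-06), again without overlap. The collagens Col1a1 (-0.77 ± 0.13, adjusted p = 3.66e-05) and Col3a1 (-0.78 ± 0.17, adjusted p = 0.000656), markers of fibroblasts, fell with overlap. Of the 13 markers of meninges and fibroblasts 4 fell and 2 rose, a share near the 48.8% of all tested genes. Within females 4 rose and 1 fell (median 0.29), and within males 0 rose and 7 fell (median -0.51). Their summed level was 21674 to 42848 (median 28073) in lithium libraries and 16177 to 34357 (median 24484) in vehicle libraries. The part of vessel content in the fall of Lef1 was not tested.

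Markers of the other cell types of the cortex changed less uniformly. Of excitatory neuron markers 2 rose and 6 fell of 14, with Slc17a7 (-0.20), the vesicular glutamate transporter, at 43901 to 52944 (median 46528) in lithium libraries and 43253 to 59071 (median 56276) in vehicle libraries (adjusted p = 0.00128), and with Cux2 (-0.38), a factor of upper layers, lower (adjusted p = 0.000533). Of interneuron markers 3 rose and 4 fell of 18. Pvalb, the calcium-binding protein of fast-spiking interneurons, had 716 to 1202 (median 823) in lithium libraries and 319 to 658 (median 482) in vehicle libraries (0.88 ± 0.11, adjusted p = 7.87e-07), with no overlap and 0.66 (adjusted p = 7.88e-05) once the trend was removed. Tac1 (0.85), the precursor of substance P, rose with overlapping groups (adjusted p = 0.00183). Dlx5 (-0.79), on the list of olfactory bulb and migratory stream markers and not on the interneuron list, fell with overlap (adjusted p = 0.00254). Vehicle female replicates 1, 4 and 5 had Dlx5 at 380, 241 and 376, and the other vehicle libraries had 110 to 173. Kit (-0.29), a receptor tyrosine kinase, fell without overlap (adjusted p = 3.76e-07).

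Of astrocyte markers 2 rose and 7 fell of 14, Sox9 (-0.49) without overlap and Aldh1l1 (-0.39) with overlap among the falls (adjusted p = 2.57e-05 and 3.35e-05). Of microglial markers 5 rose and 2 fell of 14: Cx3cr1 (-0.40), the fractalkine receptor, fell without overlap while Ctss (0.35), a lysosomal protease, rose (adjusted p = 2.52e-06 and 5.76e-06). Of oligodendrocyte precursor markers 0 rose and 5 fell of 12, Cspg4 (-0.53) without overlap and Gpr17 (-0.44) with overlap (adjusted p = 1.87e-07 and 0.000118). Of oligodendrocyte and myelin markers 0 rose and 1 fell of 14, that 1 being Mag (-0.63) (adjusted p = 0.0428). The shares of microglial, interneuron and precursor markers that passed were near or below the 48.8% of all tested genes. Without the trend 0 rose and 1 fell of the excitatory neuron markers, 2 rose and 6 fell of the interneuron, 2 rose and 4 fell of the astrocyte, 2 rose and 1 fell of the microglial and 0 rose and 3 fell of the precursor markers.

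Markers of neighbouring tissues varied within both groups. The summed level of 13 striatal markers was 14234 to 36463 in lithium libraries and 14302 to 40251 in vehicle libraries, and that of 14 markers of the olfactory bulb and its migratory stream was 7495 to 11545 in lithium libraries and 6303 to 26102 in vehicle libraries; 1 rose and 1 fell in each list. The 7 blood genes summed to 6195 to 24128 in lithium libraries and 6264 to 11870.1 in vehicle libraries, with Hbb-bs (0.55) and Hbb-bt (0.54) among the rises (adjusted p = 0.0103 and 0.0276), and the 8 choroid plexus and ependymal genes to 238 to 3246 in lithium libraries and 258 to 533 in vehicle libraries. There Ttr, the carrier protein of choroid plexus, had 25.1 to 2805 (median 68.5) in lithium libraries and 0 to 265 (median 41.9) in vehicle libraries (2.01 ± 0.79, adjusted p = 0.0408), and Foxj1 (-0.66), a factor of ciliated cells, fell (adjusted p = 0.000161). Of markers of dividing and immature cells 5 rose and 2 fell of 15, a share near the 48.8% of all tested genes. Stmn2 (0.23), a microtubule regulator of growing neurites, was among the rises and Mcm2 (-0.46), a replication helicase subunit, among the falls (adjusted p = 3.73e-05 and 0.000224). No marker of any of these lists was at 0 in all libraries of a group. The part of tissue content in the gene results was not tested.

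The remaining large changes named by rule belong to no list. Igfbp3, which binds insulin-like growth factors, had 673 to 1029 (median 750.1) in lithium libraries and 412 to 579 (median 442) in vehicle libraries (0.78 ± 0.079, adjusted p = 7.31e-08), with no overlap and 0.81 (adjusted p = 2.31e-07) with the trend removed. Kdm6b, a demethylase of histone H3, had 540.3 to 909 (median 723) in lithium libraries and 907 to 1712 (median 1208) in vehicle libraries (-0.83 ± 0.11, adjusted p = 1.69e-06), with overlap. Lars2, the mitochondrial leucyl-tRNA synthetase, had 5676 to 17568 (median 9522) in lithium libraries and 2767 to 9917 (median 5508) in vehicle libraries (0.97 ± 0.24, adjusted p = 0.00195), a spread of several fold within each group. C730002L08Rik, a transcript with no coding sequence in the annotation, had 529.5 to 894 (median 739.7) in lithium libraries and 339 to 486 (median 407) in vehicle libraries (0.82 ± 0.09, adjusted p = 2.11e-07).

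Several of the largest changes sit in pseudogenes, predicted models or identifiers with a shared symbol, where reads may be split between copies. These were the pseudogenes Gm28438 (0.97) and Gm5641 (1.24), the predicted model Gm4724 (0.996) (adjusted p = 6.16e-09, 0.00142 and 3.55e-07), and the second of 2 identifiers that carry the symbol Myl12b, ENSMUSG00000117098, which had 653 to 1214 (median 1120.03) in lithium libraries and 1369 to 1992 (median 1892) in vehicle libraries (-0.85 ± 0.091, adjusted p = 1.45e-07). Another 3 models were chosen after their values were seen, because they are near 0 in 1 group. The processed pseudogene Gm9762 reached 178 in lithium libraries (median 127 over the 10), of which male replicate 4 was at 0, and was at 0 in 9 vehicle libraries and at 55.8 in vehicle female replicate 1. It had 88.9 to 148 (median 126) in HT lithium, 106 to 172 (median 137) in HT fluoxetine females, 0 to 101 (median 0) in WT fluoxetine, 0 in every HT fluoxetine male and 0 in every HT vehicle library.

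The processed pseudogene Dynlt1-ps1 had 6.84 to 21.1 in the 10 lithium libraries and 0 in the 10 vehicle libraries. In the other sets it was above 0 in 9 of 10 HT lithium libraries and in 5 of 5 HT fluoxetine female libraries, and at 0 in all others. Gm49450, a gene model on chromosome 15, ran the other way, with 0 to 485 (median 0) in lithium libraries, 0 to 369 (median 0) in HT fluoxetine females and 137 to 1145 (median 677) in vehicle libraries.

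Naa15, the gene that the HT mice lack on 1 chromosome, was tested here in mice that keep both copies. It had 1575 to 1957 (median 1763) in lithium libraries and 1476 to 1971 (median 1612) in vehicle libraries (0.12 ± 0.047, adjusted p = 0.0448), and leaving out any of 13 single libraries put it above the threshold. Of the NatA complex 2 of 5 rose and 0 fell, near the 48.8% over all genes, and 0 passed after trend removal. The other member that rose was Naa50 (0.20), a linked acetyltransferase (adjusted p = 7.05e-05; -0.0017 with the trend removed, adjusted p = 0.982).

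The sexes were compared by an interaction term. The lithium effect differed between females and males in 0 of 17891 genes (0.0%) by limma, with 1926 at an unadjusted p under 0.05, 0 genes called by edgeR and 67 by DESeq2. The smallest adjusted p was 0.0953, for Rps24, Rps12, Pfdn5 and Rps13. These ribosomal proteins and the prefoldin subunit Pfdn5 had higher lithium effects in males: for Rps12 the log2 fold change was -0.060 in females and 0.61 in males, and for Rps24 it was 0.22 in females and 0.61 in males. The next were 2410006H16Rik, Grm3, Gm7536 and Glra3 (adjusted p between 0.103 and 0.126). Grm3, a metabotropic glutamate receptor, had -0.019 in females and -0.49 in males, and Glra3, a glycine receptor subunit, had 0.64 in females and -0.029 in males. For Arc the log2 fold change was -1.83 (adjusted p = 3.39e-06) in females and -2.08 (adjusted p = 3.91e-07) in males, and for Fkbp5 0.67 (adjusted p = 5.08e-05) in females and 0.75 (adjusted p = 8.91e-06) in males.

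The lithium effect in WT differed from that in HT mice in 0 of 17891 genes (0.0%) by limma, with 795 at an unadjusted p under 0.05 and 0 genes called by edgeR or DESeq2. The smallest adjusted p was 0.932, so the design did not separate the genotypes, which does not show that their responses are alike. The genes with the smallest p were Ramp1, Sertad2, Gm17132, Rpl10a, Utp14b, Tmem208, Arid3a and Alcam. Side by side, lithium gave -1.95 in WT and -1.69 in HT for Arc, 1.11 and 0.97 for Hif3a, -0.98 and -0.70 for Lef1, 1.61 and 1.60 for mt-Atp6, and 0.88 and 0.67 for Pvalb.

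Lithium against fluoxetine in WT mice, which shares the 10 lithium libraries with lithium against vehicle, gave 4633 higher (25.9%) and 4650 lower (26.0%) genes. With the library slopes as covariates 67 genes passed. Those slopes did not overlap between lithium and fluoxetine libraries, so that fit could hardly separate treatment from the slopes. In the main fit the 8 smallest p-values belonged to Map1s, Gm28900, mt-Atp6, Scaf1, Gm9531, Ptov1, Smarca4 and Tle3. Of the early transcription factors 1 was higher and 12 were lower under lithium than under fluoxetine (median -0.39), and of the glucocorticoid-induced genes 3 were higher and 2 were lower (median -0.031). Of the 13 mitochondrially encoded proteins 10 were higher and 0 were lower (median 0.54). The lithium effect in WT females and the fluoxetine effect in HT females differed in 0 of 17891 genes (0.0%) by limma, with 971 at an unadjusted p under 0.05, 0 by edgeR and 3 by DESeq2.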

How the data were processed

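Prefrontal cortex RNA was sequenced from stranded poly(A) libraries, per the labels' protocols, read from 1 table with 18088 Ensembl identifiers and 59 libraries. The deposited values are a normalised signal made by the authors: each column holds whole multiples of 1 step (100% of values within 0.01 of a read), that is estimated gene counts divided by 1 size factor per library. Salmon 0.11.2, R 3.6.0, DESeq2 1.19.11 and build GRCm38 are named without their roles, per the submitters' processing notes; the annotation release and gene filter are not given in the sources used here. WT size factors ran from 0.875 to 1.13.

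Genes with at least 10 in at least 4 libraries were tested with limma 3.58.1 (trend on, R 4.3.3) on log2(value + 1), sex as a covariate, groups from the labels, two-sided, Benjamini-Hochberg threshold 0.05. Each other comparison had its own limma fit, with sex as a covariate for lithium in HT and for lithium against fluoxetine. The interactions and the effects within each sex were contrasts of group means without that covariate. So were 3 comparisons with HT fluoxetine, which were added after the data were seen. Recovered reads were also tested with edgeR 4.0.16 and DESeq2 1.42.0. Trends on GC content and log2 length were removed per library with splines of 5 degrees of freedom over 17880 genes with GENCODE M21 (GRCm38) annotation. The 2 library measures were compared by permutation (100000 resamples) in Python 3.11.15. The code was tested on simulated data.

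Members, the 50 lists (36 of pathways, 14 of cell types) and the rule for named genes were chosen with earlier results of these data known. The rule took, from the called genes whose level was at least the median, the 12 with the largest rise and the 12 with the largest fall, members of each list with the smallest p, all direct lithium targets and Naa15; in the other comparisons the 8 smallest p-values. Same-numbered replicates were not treated as pairs. No library repeated another, and 0 columns were left out. Some lists share members. A few genes that the rule takes are not reported here.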

Additional observations from a re-analysis of the deposited data

Results flagged for a closer look

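In each group of 5 libraries of 1 treatment and sex, the named genes and the 2 library measures were searched for a library far from the other 4. Of 520 groups searched, 37 (7.12%) had one, where chance alone gives about 1 in 20. Values are normalised read counts, with the range of the other 4 libraries beside each.

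Lithium female replicate 2 had Itpkb high at 705 (570.5 to 605). Lithium female replicate 3 had Gm49450 high at 485 (0 in each). Lithium female replicate 4 had Dlx5 high at 159 (76.01 to 98.7), Dusp8 low at 3662 (3883 to 3957) and Tac1 high at 1809 (388 to 714). Lithium female replicate 5 had Egr1 low at 3795 (5053 to 5364). Lithium male replicate 1 had Gm49450 high at 354 (0 in each), Hcn2 high at 2830.3 (2382 to 2473), Nr4a1 high at 2175 (1382 to 1605) and Slc17a7 high at 52944 (45910.2 to 46642). Lithium male replicate 2 had Atp5mpl high at 1791 (1527 to 1599.8), Cspg4 low at 392.5 (541 to 546), Dynlt1-ps1 low at 11.98 (13.5 to 14.1), Ndufc2 high at 1678 (1449.8 to 1510.2), Psmb1 high at 3273 (2895 to 2991) and Rheb high at 3304 (2823 to 2938). Lithium male replicate 3 had Mcm2 high at 121 (88.5 to 92.9). Lithium male replicate 4 had Gm9762 low at 0 (118 to 147) and Ttr high at 2805 (36.6 to 508). Lithium male replicate 5 had Pgm2 high at 215 (187 to 193).

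Vehicle female replicate 1 had GC slope low at -0.0627 (0.102 to 0.160), Gfra2 low at 2052 (2514 to 2683), Gm9762 high at 55.8 (0 in each) and Naa50 high at 2038 (1818 to 1863). Vehicle female replicate 2 had Ctss high at 1356 (1119 to 1167), Cx3cr1 high at 1677 (1374 to 1453) and Nr4a3 low at 938 (1377 to 1555). Vehicle female replicate 3 had Fkbp5 high at 872 (745 to 774). Vehicle female replicate 4 had Adcy5 high at 8502 (4425 to 5287), Gpr17 high at 3641 (3081 to 3209) and Tac1 high at 804 (339 to 408). Vehicle female replicate 5 had Kcnh2 high at 1309 (1016 to 1085). Vehicle male replicate 2 had Gfra2 low at 2241 (2738 to 2917), Nkd1 high at 912 (725 to 772), Srebf2 low at 6848 (7461 to 7595) and Ttr high at 265 (39.2 to 85.4). Vehicle male replicate 5 had Lars2 high at 9917 (2767 to 3687).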

How the results depend on the processing

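The filters on low values, added constants of 0.5 and 5, quantile normalisation, edgeR with TMM or RLE, DESeq2, the fit of all 59 libraries, the fit with no intensity trend and the replicate block left the count for lithium against vehicle in WT within 1.5 times of 8739 genes, with 8830 under the replicate block, and kept at least 120 of the 124 named calls, or all 119 whose mean exceeds 100 under that filter. Leaving out single libraries gave 8385 to 8990 genes in WT, 8078 to 8568 in HT, 8962 to 9343 against fluoxetine, 5589 to 6726 for fluoxetine in HT females and 0 to 1 in HT males. It gave 0 to 28 genes for the sexes, 0 to 0 for the genotypes and 0 to 0 for lithium in WT females against fluoxetine in HT females, and differences of 2.66 to 2.98 points of mitochondrial share and of -0.265 to -0.238 in GC slope. The labels do not say whether replicate numbers pair the libraries, and the correlations do not decide it. Over 10 pairs the mean correlation of same-numbered deviations was 0.0491 (-0.0858 to 0.330). Of the 10, 4 were over 0.1 and 2 were best with their own number. Of the named calls, Gsk3b, Naa15, Mag, Ttr and Hbb-bt were lost when some single library was left out, 14, 13, 10, 9 and 3 libraries of the 20.

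Composition settings moved the counts. With the trend removed there were 5178 genes in WT, 4292 in HT, 5022 against fluoxetine, 2226 for fluoxetine in HT females and 1 for WT females against HT females, and 88 of 124 named calls remained. With the slopes as covariates there were 0, 1, 67, 0 and 1, with 7 for HT males and 809 for the sexes. None of the 124 named calls remained. In WT the GC slopes of lithium and vehicle libraries overlap only through vehicle female replicate 1, and the length slopes do not overlap. The mitochondrial shares do not overlap there either. Fits with these covariates can therefore hardly separate lithium from the composition in WT. With the mitochondrial share as a covariate there were 4570 in WT, 4915 in HT and 1066 for fluoxetine in HT females, and 88 named calls remained. For the sexes DESeq2 called 67, the fit of all 59 libraries 15 and the fit with no intensity trend 1, and for HT males DESeq2 called 104 and the fit of all libraries 29; DESeq2 called 3 for WT females against HT females. Of the 50 list counts, 30 moved by over 1.5 times with the trend removed, 35 with the mitochondrial share and 50 with the slopes as covariates, against at most 3 under each other setting that kept all 20 libraries. The causes of these moves were not tested.

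Log2 fold changes that changed sign were, with the trend removed, Dusp8 0.093, Gsk3a 0.067, Gnao1 0.075, Psma1 -0.017, Naa50 -0.0017 and Adcy5 0.082; with the slopes as covariates, mt-Nd3 -1.02, Gsk3a 0.059, Apc2 0.017, Hspe1 -0.0056, Pmaip1 -0.13, Sort1 0.026, Shisa7 0.18, Gabra4 -0.073, Htr6 0.074, Hcn2 0.086, Pcdhgc5 0.058, Naa15 -0.26, Naa50 -0.21, Slc17a7 0.15, Mag 1.46, Gpr17 0.081 and Adcy5 0.55; and with the mitochondrial share as a covariate, Nr4a3 0.059, Gsk3b 0.13, Grm4 0.037, Mag 0.66 and Ttr -1.88. Depth of 25.9 to 32.5 M reads limits genes with a few counts, such as Dusp2.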
